A study of Mus musculus with 12 samples.

Results

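Livers of C57BL/6 mice that received Aza-TdC at the full relative dose (1x) on a MASLD diet were compared with livers of C57BL/6 mice on a standard diet (SD). MASLD is metabolic dysfunction-associated steatotic liver disease, the build-up of fat in the liver together with metabolic disease. The question was what still set a treated liver apart from a liver on the standard diet. The comparison took 6 of the 12 libraries of the series, 3 labelled with 1x Aza-TdC (samples 2, 4 and 5, the treated livers) and 3 labelled with the standard diet (samples 3, 4 and 5), and its members were all genes that passed an expression filter. These were 13866 genes, of 22984 with any count and 55471 in the table.

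The 1x Aza-TdC livers differed from the SD livers in both diet and drug, so the parts of diet and drug in a difference cannot be told apart from these 6 libraries alone. Livers of 3 C57BL/6 mice on the MASLD diet with no Aza-TdC named in their labels (MASLD livers) were therefore set beside them, and the 1x Aza-TdC livers were tested against these directly. The last 3 libraries, with Aza-TdC at 0.1x on the MASLD diet, entered only the estimate of the spread. Sex, age, diet composition, length of feeding, absolute dose and any vehicle are not given in the labels. Whether the 3 samples of each group were different animals is not stated, so p-values reflect only the spread among samples, in part perhaps a technical one. Xist, which silences an X chromosome in female cells, had 0 counts in each of the 12 libraries.

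DNMT1 is the enzyme that copies DNA methylation onto newly made DNA strands, and Aza-TdC is a deoxycytidine analogue that is built into DNA and traps that enzyme, so that methylation is lost as cells divide. Silenced genes, among them germline genes and endogenous viral elements that can set off an interferon response, are known targets of such drugs in dividing cells. In a steatotic liver, hepatocytes store triglyceride in lipid droplets, the fatty acid receptor PPARA drives genes of fatty acid oxidation, sterol-sensing factors tune cholesterol synthesis, and macrophages and stellate cells can add inflammation and scar matrix.

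Depth ran from 34425007 to 40261526 counts in the SD libraries and from 36664790 to 41852606 counts in the 1x Aza-TdC libraries. The first principal component of log2 CPM (CPM is a count scaled to a common library size with TMM factors) held 36.5% of the variance and placed the 1x Aza-TdC libraries between 4.27 and 12.5, the SD libraries between −59.6 and −50.4 and the MASLD libraries between 25.3 and 42.2. Sample 2 of the 1x Aza-TdC livers stood apart by a trend of its counts with GC content and transcript length, which explained 18.6% of the variance of its deviations from the mean of all libraries. Sample 5 of the SD livers stood apart by B cell transcripts, given below. Sample 3 of the SD livers stood apart in male-biased genes, which summed to 52669 CPM, beside 22973 and 26569 CPM in SD samples 4 and 5. By chi-square per degree of freedom SD sample 3 differed from SD samples 4 and 5 by 107 and 105. These 2 differed from each other by 27.6. The liver label was checked against 20 hepatocyte markers, all of which had counts in every library. All CPM values below are listed in the order of the sample numbers, SD 3, 4 and 5 and then 1x Aza-TdC 2, 4 and 5.

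Against the SD livers, 1374 of 13866 genes rose in the 1x Aza-TdC livers (9.91%) and 1365 fell (9.84%), 2739 in all (19.8%), by edgeR's quasi-likelihood test at a Benjamini-Hochberg adjusted p under 0.05. At least a 2-fold change was met by 800 genes (5.77%), 497 that rose (3.58%) and 303 that fell (2.19%). In 37.2% of all genes tested the 3 treated and 3 SD libraries did not overlap in CPM, the share beside which separate groups below are to be read. No such share was computed against the MASLD livers, so separation from them is given below as a description only. The MASLD livers differed from the same SD livers in 4085 genes (29.5%), of which 2164 rose (15.6%) and 1921 fell (13.9%). Tested directly, the 1x Aza-TdC livers differed from the MASLD livers in 431 genes (3.11%), higher in 207 (1.49%) and lower in 224 (1.62%). Both comparisons with SD use the same 3 SD libraries, so their values stand side by side below, and a difference between them is called only from the direct test. Without 1x Aza-TdC sample 2 the count against SD was 1713, and without SD sample 5 it was 1740. With the trend of GC content and length removed from each library it was 2851, of which 1056 rose and 1795 fell, in place of the nearly even split above.

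**Figure D1:**
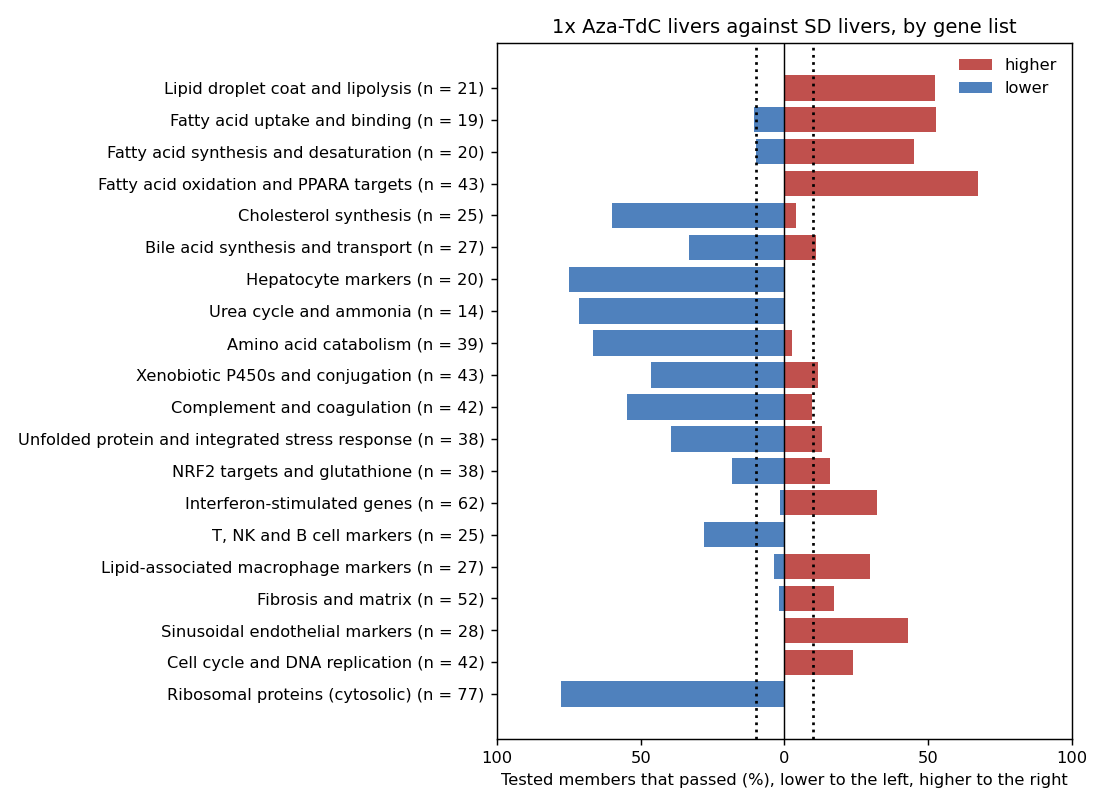
Share of the tested members of 20 gene lists that were higher (bars to the right) or lower (bars to the left) in the 1x Aza-TdC livers than in the SD livers at an adjusted p under 0.05, in percent, with the number of members tested beside each list's name. Dotted lines mark the shares over all 13866 genes, 9.91% higher and 9.84% lower. Lists of lipid storage and oxidation reach to the right, and those of urea cycle, amino acid and ribosomal protein genes to the left.

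Genes that store fat in droplets were higher under the full dose than on the standard diet. Of 21 tested genes of the droplet coat and its lipases 11 rose and 0 fell, with a median log2 fold change of 0.54 against 0.02 over all genes tested, and of 19 genes of fatty acid uptake and binding 10 rose and 2 fell (median 0.83). In the MASLD livers 14 and 10 of the same members rose against SD. Cidec, a protein that fuses droplets into larger ones (ENSMUSG00000030278, chromosome 6, 113424634 to 113435760, mm10), stood at 4.47, 1.87 and 2.53 CPM in the SD livers and 89.9, 115 and 182 CPM in the treated livers. The log2 fold change with its standard error was 5.45 ± 0.32 (adjusted p = 1.1e-07). Its relative Cidea, which is hardly made in lean liver, stood at 0.205, 0.158 and 0.116 CPM in the SD livers and 4.35, 19.8 and 57.5 CPM in the treated livers (log2 fold change 7.40 ± 1.07, adjusted p = 2.6e-04). The 3 treated livers differed widely in Cidea, with sample 2 lowest and sample 5 highest. Cidec and Cidea were among the 12 largest rises, taken only from genes with separate groups, so separation from SD is no result for them.

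Aqp7, a channel that lets glycerol through the membrane, had 0 counts over the SD libraries and 250 over the treated ones, at 0.715, 2.16 and 3.33 CPM. Against a floor of 3 counts over the SD group it was at least 62.5-fold higher. Cd36, a fatty acid transporter, stood at 21.4, 42.0 and 55.2 CPM in the SD livers and 158, 196 and 203 CPM in the treated livers (2.23 ± 0.24, adjusted p = 2.8e-05). The groups did not overlap for Cd36, and the same held for Lpl, the lipase that frees fatty acids from lipoproteins, at 10.4, 3.10 and 4.33 CPM in the SD livers and 27.3, 32.4 and 30.1 CPM in the treated livers (2.34 ± 0.36, adjusted p = 4.7e-04). Also higher were Mgll, a monoacylglycerol lipase (1.46 ± 0.11), and Fitm2, which helps droplets bud from the endoplasmic reticulum (1.25 ± 0.11). Slc27a5, the fatty acid transporter and bile acid ligase of hepatocytes, fell by 0.64 ± 0.15, and the hepatic lipase gene Lipc fell by 0.69 ± 0.14.

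Plin2, the main coat protein of hepatocyte droplets, was higher than in SD but did not reach the level of the diet alone. It stood at 441, 389 and 402 CPM in the SD livers and 556, 671 and 715 CPM in the treated livers, and at 1099, 1143 and 1198 CPM in the MASLD livers. The treated livers lay between the other groups without overlap, above SD by 0.66 ± 0.13 (adjusted p = 0.00290) and at −0.82 ± 0.13 against MASLD (adjusted p = 0.00473). Pparg, a receptor that turns on droplet genes, showed the same order, at 0.63 ± 0.16 against SD (adjusted p = 0.0134) and −0.65 ± 0.16 against MASLD (adjusted p = 0.0400). Pparg did not pass against SD without 1x Aza-TdC sample 5 (adjusted p = 0.0684), nor against MASLD without MASLD sample 3 or 4 or 1x Aza-TdC sample 2 or 4 (adjusted p from 0.0948 to 0.181).

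**Figure D2:**
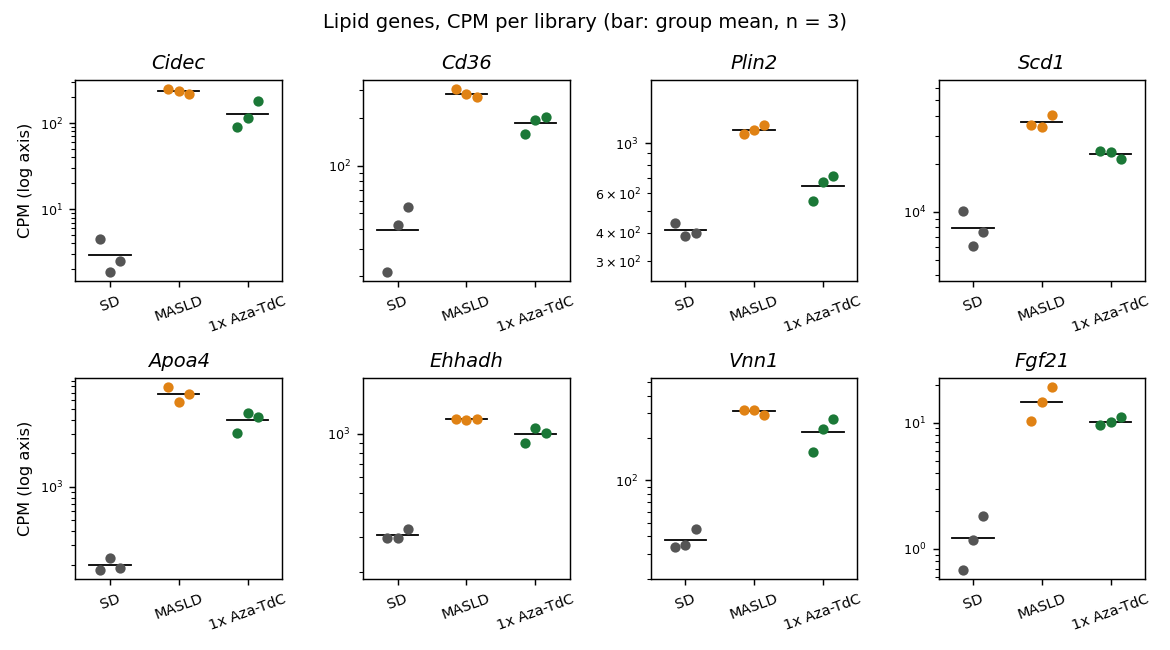
CPM per library on a log axis for 8 genes of lipid storage, uptake, synthesis and oxidation in the SD, MASLD and 1x Aza-TdC livers, 3 libraries each, with a bar at the mean of each group. For Cidec, Cd36, Plin2, Scd1, Apoa4, Ehhadh, Vnn1 and Fgf21 every 1x Aza-TdC library lies above every SD library. In all but Fgf21 every 1x Aza-TdC library also lies below every MASLD library, though Ehhadh and Vnn1 did not pass the direct test against MASLD. The share of 37.2% of all genes without overlap is for SD only, and none was computed against MASLD. Cidec and Apoa4 were among the 12 largest rises, taken only from genes with separate groups, so for them separation from SD is no result. In the direct test 2 of 21 droplet genes, 1 of 19 uptake genes and 1 of 43 oxidation genes were lower than in MASLD and 0 higher.

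Of 20 genes of fatty acid synthesis and desaturation 9 rose and 2 fell (median 0.58), and of 15 genes of triglyceride synthesis 5 rose and 2 fell. Scd1, the desaturase that makes oleate, was among the most abundant of them, at 10092, 6081 and 7507 CPM in the SD livers and 23935, 23852 and 21579 CPM in the treated livers (1.55 ± 0.19, adjusted p = 8.2e-05). All treated libraries lay above all SD libraries. Fads2, a desaturase of polyunsaturated fatty acids, rose by 1.69 ± 0.16 and Scd2 by 1.66 ± 0.26. Acss2, which makes acetyl-CoA from acetate, fell by 1.07 ± 0.25, and Elovl3, an elongase with male-biased expression, fell by 1.10 ± 0.25. Fasn, fatty acid synthase, did not pass, at 506, 285 and 278 CPM in the SD livers and 708, 503 and 285 CPM in the treated livers (0.48 ± 0.34, adjusted p = 0.350). Treated sample 2 lay above the SD range of Fasn and the other 2 within it.

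Gpat3, an acyltransferase at the first step of triglyceride synthesis, rose by 2.28 ± 0.21 (adjusted p = 5.7e-06). Mogat1, which acylates monoacylglycerol, stood at 1.19, 0.823 and 1.31 CPM in the SD livers and 3.34, 5.42 and 5.47 CPM in the treated livers and at 10.8, 8.08 and 9.86 CPM in the MASLD livers. The treated livers lay between the others, above SD by 2.09 ± 0.24 (adjusted p = 3.8e-05) and at −1.02 ± 0.20 against MASLD (adjusted p = 0.0169), the latter lost without MASLD sample 3 or 1x Aza-TdC sample 2 (adjusted p = 0.0867 and 0.0655). Dgat2, which completes triglyceride, passed at −0.35 ± 0.11 (adjusted p = 0.0366), and that call was lost without any 1 of 5 libraries, all but SD sample 3 (adjusted p from 0.0715 to 0.132).

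Among 19 apolipoprotein and lipoprotein assembly genes 1 rose and 10 fell. The gene that rose was Apoa4, an apolipoprotein that increases with liver fat (ENSMUSG00000032080, chromosome 9, 46240696 to 46243459, mm10), at 179, 229 and 185 CPM in the SD livers and 3053, 4602 and 4231 CPM in the treated livers (4.32 ± 0.22, adjusted p = 5.0e-08). Against the MASLD livers, at 7883, 5836 and 6828 CPM, the treated livers were lower, at −0.79 ± 0.19 (adjusted p = 0.0389), a call lost with any 1 of the 6 libraries left out (adjusted p from 0.0622 to 0.183). Apoc3, which slows clearance of triglyceride-rich particles, fell by 0.89 ± 0.14, and Apom, a carrier of sphingosine phosphate, by 0.67 ± 0.13. The count of 10 that fell was 5 without SD sample 5 or 1x Aza-TdC sample 2, 6 without 1x Aza-TdC sample 5 and 5 after removal of the GC and length trend.

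Fatty acid oxidation genes were higher. Of 43 tested targets of PPARA and genes of fatty acid oxidation 29 rose and 0 fell (median 0.72), and in the MASLD livers 27 rose and 0 fell (median 0.65). Ehhadh, a peroxisomal enzyme of the pathway, stood at 295, 297 and 327 CPM in the SD livers and 891, 1073 and 1011 CPM in the treated livers (1.69 ± 0.11, adjusted p = 3.2e-07). Cyp4a31, a fatty acid hydroxylase whose reads may be shared with other Cyp4a genes, stood at 2.18, 2.69 and 1.83 CPM in the SD livers and 25.5, 26.4 and 27.4 CPM in the treated livers (3.56 ± 0.20, adjusted p = 1.1e-07). The 3 treated libraries were close together for both genes and far above the SD libraries.

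Vnn1, a pantetheinase and a PPARA target, rose by 2.55 ± 0.18 (adjusted p = 4.5e-07). Fgf21, a hormone that the liver secretes under PPARA control, stood at 0.682, 1.17 and 1.83 CPM in the SD livers and 9.502, 10.1 and 11.02 CPM in the treated livers (3.03 ± 0.31, adjusted p = 1.8e-05). Cpt1a, which brings fatty acids into mitochondria, rose by 0.74 ± 0.15 (adjusted p = 0.00317). None of Ehhadh, Cyp4a31, Vnn1, Fgf21 and Cpt1a passed the direct test against the MASLD livers (adjusted p from 0.147 to 0.947). Ppara itself rose by 0.85 ± 0.21 (adjusted p = 0.00956), a call lost without SD sample 5 (adjusted p = 0.0511) or 1x Aza-TdC sample 2 (adjusted p = 0.0579).

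Cholesterol synthesis lay below SD. Of 25 tested genes of the pathway 15 fell and 1 rose (median −0.70), and in the MASLD livers 15 fell and 1 rose (median −0.86). Nsdhl, a sterol dehydrogenase, stood at 129.8, 92.4 and 74.7 CPM in the SD livers and 32.0, 38.6 and 23.7 CPM in the treated livers (−1.65 ± 0.22, adjusted p = 1.2e-04). Tm7sf2, a sterol reductase, stood at 189, 189 and 186 CPM in the SD livers and 65.1, 80.2 and 60.5 CPM in the treated livers (−1.45 ± 0.12, adjusted p = 3.1e-06). All 3 treated libraries lay below all 3 SD libraries in both genes, and also in Cyp51, the lanosterol demethylase, which fell by 1.58 ± 0.21. Without 1x Aza-TdC sample 5, 4 genes of the list rose and 10 fell, and without SD sample 5 or 1x Aza-TdC sample 2, or after removal of the GC and length trend, 0 rose.

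Of 16 genes of sterol efflux and LXR targets 5 rose and 0 fell, and 3 rose without 1x Aza-TdC sample 2. Abca1 and Abcg5, which export sterols, rose by 0.98 ± 0.14 and 1.01 ± 0.15. Of 27 genes of bile acid synthesis and transport 3 rose and 9 fell. Cyp7a1, which sets the rate of bile acid synthesis, stood at 36.2, 28.1 and 60.1 CPM in the SD livers and 72.2, 149.8 and 69.2 CPM in the treated livers (1.23 ± 0.33, adjusted p = 0.0184), and each treated library exceeded each SD library. It was also higher than in the MASLD livers, at 39.2, 43.9 and 33.7 CPM (log2 fold change 1.32 ± 0.33, adjusted p = 0.0476). The call against SD was lost without SD sample 3, SD sample 4 or 1x Aza-TdC sample 4 (adjusted p from 0.0539 to 0.0971), and that against MASLD without any 1 library (adjusted p from 0.0501 to 0.202).

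Later steps of bile acid synthesis went the other way. Akr1d1, a steroid reductase of the pathway, stood at 126, 185 and 169.9 CPM in the SD livers and 90.3, 76.4 and 47.6 CPM in the treated livers (−1.17 ± 0.22, adjusted p = 0.00210), and the mouse muricholic acid enzyme Cyp2c70, a member of a family with shared sequence, fell by 1.59 ± 0.20. Abcb4, which exports phospholipid into bile, rose by 0.70 ± 0.13. Abcc4, a basolateral exporter of bile acids and other organic anions, stood at 1.91, 1.20 and 1.25 CPM in the SD livers and 7.50, 8.88 and 7.06 CPM in the treated livers (2.43 ± 0.20, adjusted p = 2.7e-06), with no overlap between the groups.

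Genes of hepatocyte function lay below SD. Of 20 hepatocyte markers 15 fell and 0 rose (median −0.65), against 18 and 0 in the MASLD livers (median −0.87). Their summed level was 232257 to 243674 CPM in SD, 142524 to 165367 CPM in the treated livers and 122420 to 147493 CPM in the MASLD livers. Fewer cells of a type and less RNA per cell cannot be told apart in bulk tissue. Ahsg, the secreted protein fetuin-A, stood at 10673, 9833 and 10242 CPM in the SD livers and 4639.8, 4645 and 4914 CPM in the treated livers (−1.11 ± 0.16, adjusted p = 2.4e-04), and every treated library lay at less than any SD library. Alb, serum albumin, passed narrowly (−0.59 ± 0.20, adjusted p = 0.0471), and the call was lost with any 1 library left out (adjusted p from 0.0542 to 0.130), after removal of the GC and length trend and with a filter at a mean of 1 CPM.

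Of the factors that maintain hepatocyte identity, Hnf4a stood at 735, 876 and 780.1 CPM in the SD livers and 458, 401 and 481 CPM in the treated livers (−0.84 ± 0.14, adjusted p = 9.6e-04). All treated libraries lay below all SD libraries in Hnf4a, and Foxa3 (−1.02 ± 0.13, adjusted p = 8.2e-05) and Cebpa (−0.77 ± 0.13, adjusted p = 0.00110) fell too. These were 3 of the 4 genes that fell among 22 hepatocyte transcription factors, and 2 rose, Ppara and Pparg. None of Hnf4a, Foxa3 and Cebpa passed the direct test against MASLD (adjusted p from 0.122 to 0.574).

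Nitrogen metabolism genes were lower. Of 14 genes of the urea cycle and ammonia handling 10 fell and 0 rose (median −0.71), and of 39 genes of amino acid catabolism 26 fell and 1 rose (median −0.61). Ass1, the urea cycle enzyme that joins citrulline and aspartate (ENSMUSG00000076441, chromosome 2, 31470207 to 31520672, mm10), stood at 5291, 6261 and 5917 CPM in the SD livers and 1821, 1648 and 1646 CPM in the treated livers (−1.77 ± 0.16, adjusted p = 6.2e-06). Agxt, which detoxifies glyoxylate, stood at 374, 417 and 450.2 CPM in the SD livers and 57.7, 69.5 and 63.8 CPM in the treated livers (−2.699 ± 0.22, adjusted p = 1.7e-06). Cth, which makes cysteine, stood at 422, 455 and 533 CPM in the SD livers and 123, 137 and 114 CPM in the treated livers (−1.91 ± 0.13, adjusted p = 3.0e-07). In each of the 3 the highest treated library held less than the lowest SD library by a wide margin.

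Some of these genes were higher than in the MASLD livers. In amino acid catabolism 9 of 39 passed in that direction and 0 in the other, with 1 left without MASLD sample 3 or 4 or 1x Aza-TdC sample 2, 3 without 1x Aza-TdC sample 4 and 4 without 1x Aza-TdC sample 5. Got1, which transfers amino groups to make aspartate, stood at 425, 355 and 399 CPM in the SD livers and 122, 100.1 and 111 CPM in the treated livers and at 57.2, 43.4 and 77.5 CPM in the MASLD livers. It lay at −1.82 ± 0.17 against SD (adjusted p = 7.0e-06) and at 0.90 ± 0.17 against MASLD (adjusted p = 0.0108), without overlap on either side. The call against MASLD was lost without MASLD sample 3 or 4 or 1x Aza-TdC sample 2 (adjusted p from 0.0522 to 0.0626). Gls2, the liver glutaminase, lay at −1.52 ± 0.18 against SD and 0.83 ± 0.18 against MASLD (adjusted p = 0.0237), and Asl, the urea cycle enzyme after Ass1, at −1.07 ± 0.16 and 0.72 ± 0.16 (adjusted p = 0.0236). For Gls2 the second call was lost without MASLD sample 3 or 4 or 1x Aza-TdC sample 2 or 4, and for Asl without any library but MASLD sample 5 (adjusted p from 0.0549 to 0.139). Csad, which makes hypotaurine for bile acid conjugation, was the gene that rose in the amino acid list (0.59 ± 0.18, adjusted p = 0.0326), and without SD sample 4, 1x Aza-TdC sample 4 or 1x Aza-TdC sample 5 no gene of the list rose.

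Of 22 genes expressed mainly near the portal vein 15 fell and 3 rose, and of 20 expressed mainly near the central vein 8 fell and 1 rose. Without SD sample 4 or 5 or 1x Aza-TdC sample 2 or 5, 5 of the latter fell, and without 1x Aza-TdC sample 2, 1 of the former rose. Etnppl, a periportal lyase of phosphoethanolamine, fell by 1.73 ± 0.19, and Oat, a pericentral enzyme of ornithine breakdown, by 1.93 ± 0.21. Cyp1a2, a pericentral xenobiotic P450, stood at 1112, 1117 and 1098 CPM in the SD livers and 242, 309 and 402 CPM in the treated livers (−1.80 ± 0.22, adjusted p = 6.1e-05). Cyp2e1, another pericentral P450, did not pass, at 8472, 11416 and 12516 CPM in the SD livers and 7869.9, 10426 and 12110.3 CPM in the treated livers (−0.09 ± 0.18, adjusted p = 0.763), and its groups overlapped. Among 43 genes of xenobiotic metabolism 20 fell and 5 rose (median −0.69), with 3 rising without SD sample 3 or 1x Aza-TdC sample 2 or 5 or after removal of the GC and length trend. Ces1g, a carboxylesterase, fell by 1.37 ± 0.13, and Cyp2c54, a P450 of a family with shared sequence, by 2.16 ± 0.28.

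Secreted plasma proteins fell with them. Of 42 complement and coagulation genes 23 fell and 4 rose (median −0.44), and of 32 acute phase genes 9 fell and 0 rose. Serpind1, an inhibitor of thrombin, fell by 0.91 ± 0.11. C8b, a part of the complement membrane attack complex, stood at 511, 359 and 326 CPM in the SD livers and 150.1, 147 and 147 CPM in the treated livers and at 43.8, 45.4 and 66.7 CPM in the MASLD livers. It lay between the groups, at −1.43 ± 0.23 against SD (adjusted p = 5.8e-04) and 1.51 ± 0.23 against MASLD (adjusted p = 0.00348). Without 1x Aza-TdC sample 4, 5 acute phase genes fell and 1 rose, and without SD sample 5, 6 fell and 1 rose. Without SD sample 4 or 5, or 1x Aza-TdC sample 2 or 5, 2 complement and coagulation genes rose.

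The growth hormone axis, which sets liver Igf1 and the sex bias of liver genes, was also lower. Igf1, the circulating growth factor, stood at 510.3, 419 and 427 CPM in the SD livers and 252, 271 and 302 CPM in the treated livers (−0.72 ± 0.16, adjusted p = 0.00613). The receptor genes Ghr and Prlr fell by 0.52 ± 0.11 and 1.11 ± 0.20. In all 8 of 19 genes of the axis fell and 1 rose, and 4 to 7 fell when 1 library was left out. Of 34 male-biased liver genes 11 fell and 2 rose, and of 24 female-biased genes 8 rose and 2 fell.

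Sex-biased genes held some of the largest changes, in families that share near-identical sequence and whose counts are uncertain. Cyp2a4, a female-biased P450, stood at 0.409, 1.30 and 3.40 CPM in the SD livers and 168, 204 and 93.4 CPM in the treated livers (6.47 ± 0.68, adjusted p = 2.0e-05). Hsd3b5, a male-biased steroid dehydrogenase, stood at 314, 100.1 and 119.6 CPM in the SD livers and 44.8, 44.9 and 59.4 CPM in the treated livers and at 2.50, 3.82 and 5.51 CPM in the MASLD livers. The treated livers lay between the others for Hsd3b5, at −1.84 ± 0.58 against SD (adjusted p = 0.0366) and 3.65 ± 0.65 against MASLD (adjusted p = 0.00905). SD sample 3 was the highest library for Hsd3b5, and without it the call against SD was lost (adjusted p = 0.165), as it was without each 1x Aza-TdC library (adjusted p from 0.0731 to 0.120) and with DESeq2 (adjusted p = 0.0595). The call against MASLD was lost without MASLD sample 3 or 4 (adjusted p = 0.0593 and 0.0560). Obp2a, a lipocalin with male-biased expression, had 323 counts over the SD libraries and 2 over the treated ones, a ratio of 215 with a 95% counting interval of 59.1 to 1786. Without SD sample 3, 7 male-biased genes fell and 4 rose, and without any 1 of the other 5 libraries 0 rose and 8 to 13 fell. The median log2 fold change of the male-biased genes was −0.47 with all libraries and 0.05 without SD sample 3. Of the female-biased genes 5 rose without SD sample 4 or 1x Aza-TdC sample 4, and 0 fell without SD sample 5 or 1x Aza-TdC sample 5.

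**Figure D3:**
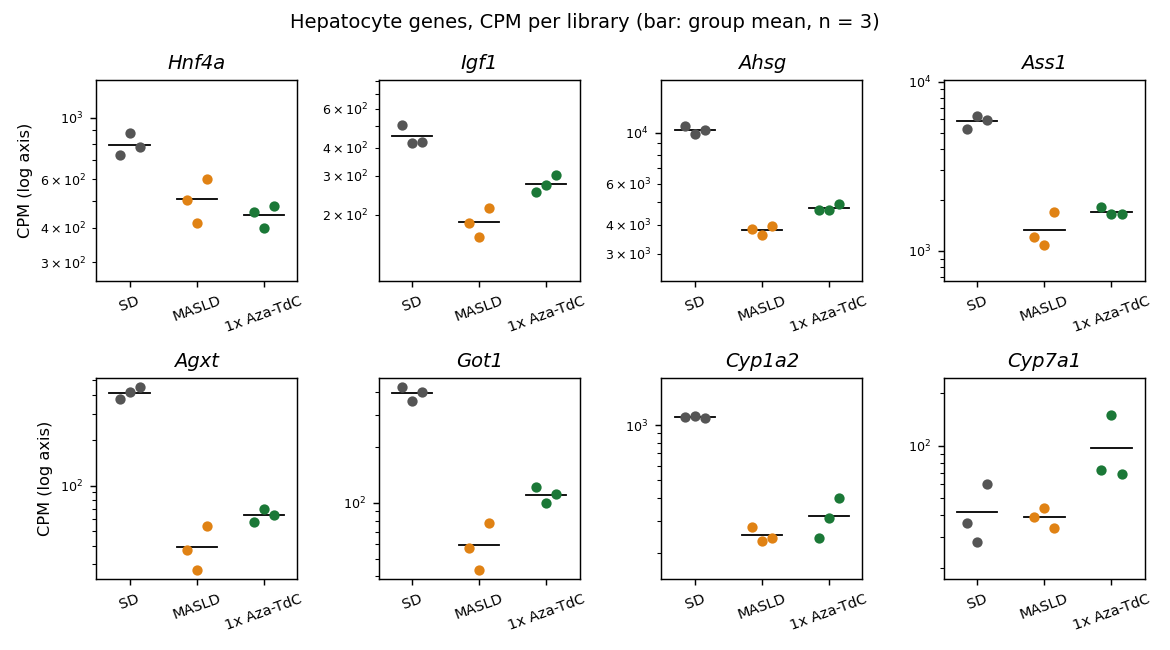
CPM per library on a log axis for 8 hepatocyte genes (Hnf4a, Igf1, Ahsg, Ass1, Agxt, Got1, Cyp1a2 and Cyp7a1) in the SD, MASLD and 1x Aza-TdC livers, 3 libraries each, with a bar at the mean of each group. In Cyp7a1 the 1x Aza-TdC libraries are the highest of the 3 groups, and in the other 7 genes they lie below the SD libraries.

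Chaperones of the endoplasmic reticulum, which fold secreted proteins, were low under the full dose. Of 38 genes of the unfolded protein and integrated stress response 15 fell and 5 rose, against 13 and 9 in the MASLD livers. The treated livers were lower than the MASLD livers in 7 and higher in 1, and 2 to 4 were lower without any 1 library but MASLD sample 5. Among those that fell against SD, Calr, Creld2 and Pdia6 have the endoplasmic reticulum stress response element in the stretch before the start, given for the sense strand of each gene (RefSeq sequence, build GRCm38.p6), with the match to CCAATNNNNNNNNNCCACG on either strand in capitals.
Calr (chr8:84847050-84847118, minus strand): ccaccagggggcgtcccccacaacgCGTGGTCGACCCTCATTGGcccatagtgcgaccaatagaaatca
Creld2 (chr15:88819495-88819563, plus strand): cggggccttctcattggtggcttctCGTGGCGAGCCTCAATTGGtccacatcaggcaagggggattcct
Pdia6 (chr12:17266466-17266534, plus strand): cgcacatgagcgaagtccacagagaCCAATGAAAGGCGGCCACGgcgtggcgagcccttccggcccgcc
The element was found on either strand in 0.13% of 27025 mouse promoter windows (250 bases before to 50 after a gene's start), in 8 of 35 windows of the list, in 5 of 13 windows of the genes that fell and in 3 of 17 of those not called. A match is a description of the letters and neither a site nor a cause.

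Calr, the calcium-binding chaperone calreticulin, stood at 1574, 1180.0 and 1370.1 CPM in the SD livers and 583, 628 and 625 CPM in the treated livers (−1.17 ± 0.16, adjusted p = 1.5e-04). Pdia6, a disulfide isomerase, stood at 449.9, 364 and 429 CPM in the SD livers and 214, 227 and 228 CPM in the treated livers (−0.89 ± 0.13, adjusted p = 2.5e-04). For both genes the treated libraries were tightly grouped below the SD libraries, and neither passed against MASLD (adjusted p = 0.252 and 0.330). Xbp1, the transcription factor that drives chaperone genes, fell by 0.77 ± 0.11 against SD and lay below MASLD (−0.50 ± 0.11; adjusted p = 0.0217), the latter lost with any 1 library left out (adjusted p from 0.0518 to 0.100).

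Creld2 and Manf, small secreted chaperones of the same compartment, were below both other groups. Creld2 stood at 34.6, 32.9 and 39.1 CPM in the SD livers and 23.5, 19.4 and 17.3 CPM in the treated livers and at 52.2, 39.2 and 35.1 CPM in the MASLD livers (−0.82 ± 0.18 against SD, adjusted p = 0.00513, and −1.07 ± 0.18 against MASLD, adjusted p = 0.00627). Manf stood at 87.2, 69.3 and 88.7 CPM in the SD livers and 46.0, 47.1 and 36.8 CPM in the treated livers and at 96.9, 84.6 and 77.2 CPM in the MASLD livers (−0.92 ± 0.15, adjusted p = 8.6e-04, and −0.99 ± 0.15, adjusted p = 0.00393). Neither gene passed between MASLD and SD (adjusted p = 0.310 and 0.732).

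The 5 genes of this list that rose were Psat1, Gdf15, Sesn2, Ddit4 and Eif2ak3, the kinase PERK that senses stress in the endoplasmic reticulum. Psat1, an enzyme of serine synthesis, stood at 0.887, 0.475 and 0.756 CPM in the SD livers and 6.60, 5.97 and 6.84 CPM in the treated livers (3.19 ± 0.44, adjusted p = 2.0e-04), and Gdf15, a stress hormone, at 1.57, 2.47 and 2.09 CPM in the SD livers and 4.46, 4.27 and 6.98 CPM in the treated livers (1.35 ± 0.24, adjusted p = 0.00128). Sesn2, a restraint on growth signalling, rose by 1.02 ± 0.20 and Ddit4, another, by 0.84 ± 0.21, a call lost without 1x Aza-TdC sample 2 (adjusted p = 0.0788). Without 1x Aza-TdC sample 2, 3 genes of the list rose and 15 fell.

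Glutathione enzymes split. Of 38 NRF2 targets and glutathione genes 6 rose and 7 fell, where 18 rose and 6 fell in the MASLD livers, and the treated livers were lower than the MASLD livers in 8 and higher in 0 (2 without MASLD sample 4 or 1x Aza-TdC sample 2, 3 without MASLD sample 3, and 5 without 1x Aza-TdC sample 4 or 5). Gstm3, a glutathione transferase in a family with shared sequence, stood at 69.3, 67.7 and 79.1 CPM in the SD livers and 32.6, 35.5 and 46.7 CPM in the treated livers and at 161, 187 and 109 CPM in the MASLD livers. It lay at −0.91 ± 0.20 against SD (adjusted p = 0.00561) and at −1.99 ± 0.21 against MASLD (adjusted p = 2.1e-04), whereas MASLD was above SD by 1.08 ± 0.20 (adjusted p = 0.00115). Srxn1, which repairs oxidised peroxiredoxins, stood at 30.3, 25.3 and 26.9 CPM in the SD livers and 52.8, 60.9 and 56.7 CPM in the treated livers, above SD by 1.05 ± 0.14 (adjusted p = 1.7e-04) and at −0.74 ± 0.14 against MASLD (adjusted p = 0.0125). The call against MASLD was lost without MASLD sample 3 or 4 or 1x Aza-TdC sample 2 (adjusted p from 0.0599 to 0.0709). Nqo1, a common reporter of NRF2, did not pass against SD (0.41 ± 0.18, adjusted p = 0.128), and it did with the GC and length trend removed (adjusted p = 0.0431) and without 1x Aza-TdC sample 2 (adjusted p = 0.0270). Without SD sample 4 or 5, 3 genes of this list rose and 4 fell, and without 1x Aza-TdC sample 5, 4 rose and 4 fell.

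A part of the interferon-stimulated genes was higher under the full dose than in either other group. Of 62 tested genes 20 rose and 1 fell against SD (median 0.56), where 12 rose and 12 fell in the MASLD livers (median 0.12). In the direct test 16 of the 62 were higher than in the MASLD livers and 0 were lower, with 6 higher without MASLD sample 3 or 4 or 1x Aza-TdC sample 2 and 10 without 1x Aza-TdC sample 4. Without 1x Aza-TdC sample 2, 13 rose and 1 fell against SD, and without SD sample 4, 15 rose and 2 fell. The treated libraries summed to 2299.9 to 2518 CPM over the list, the SD libraries to 1918 to 2484 CPM and the MASLD libraries to 1703 to 1852 CPM, so the treated and SD ranges of the sum overlapped.

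The upstream stretches of Igtp and Irgm2, neighbouring interferon-induced GTPases on chromosome 11, show the interferon-stimulated response element shared by many of these genes. They are given for the sense strand (RefSeq sequence, build GRCm38.p6), with the match to GAAANNGAAA in capitals.
Igtp (chr11:58199497-58199555, plus strand): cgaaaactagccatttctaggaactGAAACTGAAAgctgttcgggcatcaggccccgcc
Irgm2 (chr11:58214888-58214947, plus strand): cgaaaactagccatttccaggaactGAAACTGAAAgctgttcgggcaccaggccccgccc
Over their first 59 bases the 2 stretches are identical at 57 positions. The element was found on either strand in 3.49% of the 27025 windows and in 28 of 46 windows of the list, at like shares of the genes that rose (7 of 12) and of those not called (20 of 33).

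Usp18, a brake on interferon receptor signalling (ENSMUSG00000030107, chromosome 6, 121245906 to 121270917, mm10), stood at 8.12, 4.34 and 4.94 CPM in the SD livers and 16.0, 13.1 and 15.04 CPM in the treated livers and at 6.73, 7.001 and 6.44 CPM in the MASLD livers. Its treated libraries lay above all others, by 1.35 ± 0.19 against SD (adjusted p = 2.3e-04) and 1.13 ± 0.19 against MASLD (adjusted p = 0.00601), and MASLD and SD did not differ beyond their spread (adjusted p = 0.424). Parp9, which works with Dtx3l in the interferon response, rose by 0.97 ± 0.13 (adjusted p = 1.5e-04) and was above MASLD by 0.55 ± 0.13 (adjusted p = 0.0308), the latter lost with any 1 library left out (adjusted p from 0.0538 to 0.160).

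The GTPase genes Igtp and Irgm2 were above both other groups under the full dose, and Igtp fell below SD on the diet alone. For Irgm2 the MASLD and SD libraries overlapped. Igtp stood at 29.0, 39.3 and 44.7 CPM in the SD livers and 77.4, 65.9 and 61.0 CPM in the treated livers and at 16.3, 17.9 and 21.6 CPM in the MASLD livers. It was above SD by 0.85 ± 0.18 (adjusted p = 0.00362) and above MASLD by 1.87 ± 0.18 (adjusted p = 1.6e-04), while MASLD was below SD (−1.02 ± 0.18, adjusted p = 7.1e-04). Irgm2 stood at 34.8, 39.8 and 46.1 CPM in the SD livers and 88.2, 74.4 and 68.6 CPM in the treated livers and at 27.9, 27.4 and 34.9 CPM in the MASLD livers, with log2 fold changes of 0.94 ± 0.15, 1.36 ± 0.15 and −0.42 ± 0.15 in the same order. Apol9a, an interferon-induced apolipoprotein L whose reads may be shared with Apol9b, had the same order of groups at 0.87 ± 0.19, 1.98 ± 0.19 and −1.11 ± 0.19. In each of the 3 genes no treated library overlapped an SD or MASLD library.

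Some antigen presentation genes differed, in both directions. Of 27 genes 4 rose and 3 fell against SD, 25.9% of the list beside 19.8% of all genes. The number that fell was 0 without SD sample 5 or 1x Aza-TdC sample 2. It was 1 without 1x Aza-TdC sample 4 and 7 without SD sample 4. Against the MASLD livers 11 were higher and 3 lower (6 and 0 without MASLD sample 3 or 4, and 7 and 0 without 1x Aza-TdC sample 2 or 4). Those that rose against SD belong to the class I pathway, H2-Q4 and these 3: Tap1, a peptide transporter (0.76 ± 0.15, adjusted p = 0.00305), Psmb9, a subunit of the immunoproteasome (0.64 ± 0.14, adjusted p = 0.00582), and H2-Q6, a nonclassical class I gene of a family with shared sequence, at 22.3, 23.1 and 23.8 CPM in the SD livers and 50.1, 36.1 and 41.3 CPM in the treated livers (0.88 ± 0.15, adjusted p = 9.8e-04). The class II gene H2-Aa, made by antigen-presenting cells, stood at 39.4, 20.3 and 53.1 CPM in the SD livers and 11.7, 10.8 and 21.9 CPM in the treated livers (−1.35 ± 0.37, adjusted p = 0.0201). The SD libraries spread widely in H2-Aa, with sample 5 highest, and the call was lost without SD sample 5 or 1x Aza-TdC sample 2 or 4 (adjusted p from 0.0714 to 0.105). The class II genes that fell were H2-Aa, H2-Ab1 and H2-Ob. SD sample 5 was also the highest SD library for B cell transcripts, given below, and the part of B cells in this result was not tested.

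**Figure D4:**
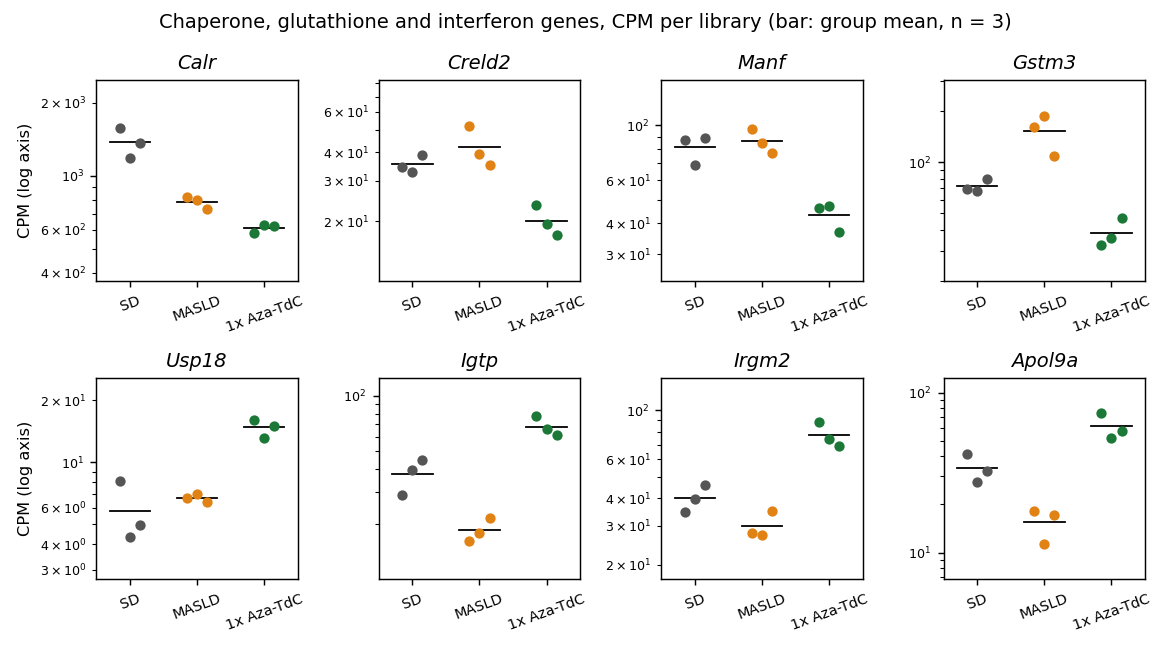
CPM per library on a log axis for the chaperone genes Calr, Creld2 and Manf, the glutathione transferase gene Gstm3 and the interferon genes Usp18, Igtp, Irgm2 and Apol9a in the SD, MASLD and 1x Aza-TdC livers, 3 libraries each, with a bar at the mean of each group. The 1x Aza-TdC libraries are the lowest of all for Calr, Creld2, Manf and Gstm3 and the highest of all for the 4 interferon genes.

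Markers of lymphocytes were lower, and their levels depended on 1 SD library. Of 25 tested T, NK and B cell markers 7 fell and 0 rose (median −1.32). Their summed level was 48.6, 21.1 and 483 CPM in the SD livers and 16.9, 22.2 and 22.8 CPM in the treated livers. Ighm, the heavy chain of IgM, stood at 18.4, 5.13 and 258 CPM in the SD livers and 4.94, 7.89 and 5.71 CPM in the treated livers. SD sample 5 accounted for most of the SD counts of Ighm, and the fold change (−3.93 ± 0.96, adjusted p = 0.0101) did not pass without that sample (adjusted p = 0.193) or without 1x Aza-TdC sample 2 (adjusted p = 0.0510). Cd3d, a part of the T cell receptor complex, stood at 0.785, 0.602 and 1.08 CPM in the SD livers and 0.126, 0.240 and 0.264 CPM in the treated livers (−1.97 ± 0.49, adjusted p = 0.0105), and it narrowly missed the threshold without SD sample 5 or 1x Aza-TdC sample 2. Without either of these libraries 1 of the 25 markers fell, 4 fell without 1x Aza-TdC sample 4 or 5, and 11 fell without SD sample 4.

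Macrophage and matrix genes were in part lower than in the MASLD livers. Of 27 lipid-associated macrophage markers 8 rose and 1 fell against SD (median 0.56), where 19 rose in the MASLD livers (median 1.60), and the treated livers were lower than MASLD in 8 of 27 and higher in 0 (4 without MASLD sample 4 or 1x Aza-TdC sample 4, and 5 without 1x Aza-TdC sample 2). Cd63, a tetraspanin of lysosomes, stood at 3.48, 3.61 and 4.19 CPM in the SD livers and 12.3, 20.1 and 15.4 CPM in the treated livers (2.08 ± 0.31, adjusted p = 3.8e-04). Gpnmb, a glycoprotein of lipid-laden macrophages, stood at 0.102, 0.127 and 0.145 CPM in the SD livers and 0.778, 0.960 and 3.91 CPM in the treated livers (3.85 ± 1.09, adjusted p = 0.0219). The treated sample 5 was the highest for Gpnmb, and the call was lost without it (adjusted p = 0.106) or without any 1 SD library (adjusted p from 0.0574 to 0.0726). Trem2, the lipid receptor that defines these macrophages, did not pass, at 0.512, 0.412 and 0.145 CPM in the SD livers and 0.757, 1.18 and 0.687 CPM in the treated livers (1.31 ± 0.58, adjusted p = 0.132), nor against MASLD (−1.48 ± 0.50, adjusted p = 0.137). Without SD sample 4 or 1x Aza-TdC sample 5, 5 markers rose.

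Of 52 tested fibrosis and matrix genes 9 rose and 1 fell against SD (median 0.62), where 34 rose in the MASLD livers (median 1.30). The share called against SD was 19.2%, beside 19.8% of all genes. The treated livers were lower than MASLD in 5 of the 52 and higher in 0, and in 1 without MASLD sample 4 or 1x Aza-TdC sample 2 or 4. Postn, the matrix protein periostin, stood at 4.20, 5.35 and 5.09 CPM in the SD livers and 11.5, 9.86 and 12.4 CPM in the treated livers (1.20 ± 0.13, adjusted p = 3.3e-05), and Col12a1, a fibril-associated collagen, at 0.580, 1.04 and 0.930 CPM in the SD livers and 2.12, 2.74 and 2.62 CPM in the treated livers (1.54 ± 0.25, adjusted p = 6.7e-04). Both genes were above SD in every treated library. Col1a1, the main collagen of scar, did not pass, at 3.62, 0.918 and 2.79 CPM in the SD livers and 2.35, 2.57 and 8.88 CPM in the treated livers (0.90 ± 0.76, adjusted p = 0.439), with treated sample 5 above and the other 2 within the SD range. Timp1, an inhibitor of matrix proteases, did not pass either (1.15 ± 0.79, adjusted p = 0.336). Counts of matrix genes that rose ran from 5 without SD sample 5 to 12 without SD sample 3, and without a filter on low counts 22 rose.

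Spp1, osteopontin of macrophages and bile duct cells, stood at 18.4, 10.005 and 14.5 CPM in the SD livers and 19.02, 20.7 and 23.6 CPM in the treated livers and at 43.0, 139 and 35.7 CPM in the MASLD livers. It did not pass against SD (0.56 ± 0.40, adjusted p = 0.349) and was below MASLD, at −1.79 ± 0.40 (adjusted p = 0.0264). MASLD sample 4 was the highest library for Spp1, and without it or any 1 treated library the call against MASLD was lost (adjusted p from 0.0689 to 0.121). Of 22 cholangiocyte and ductular markers 0 rose and 0 fell against SD by edgeR at an adjusted p under 0.05 (2 at an unadjusted p under 0.05, and 0 by DESeq2), where 15 rose in the MASLD livers. Their mean log2 CPM was 0.23 to 0.38 in SD, 0.20 to 0.71 in the treated livers and 1.30 to 2.40 in the MASLD livers. In the direct test 6 of the 22 were lower in the treated than in the MASLD livers, 3 without MASLD sample 3 or 1x Aza-TdC sample 5, 1 without MASLD sample 4 and 0 without 1x Aza-TdC sample 2 or 4.

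Sinusoidal endothelial markers were higher. Of 28 tested 12 rose and 0 fell (median 0.46), with 11 rising in the MASLD livers. With 1 library left out 8 to 16 rose, and after removal of the GC and length trend 10 rose and 1 fell. With the replicate numbers fitted as a block, as described below, 3 rose. Fcgr2b, the inhibitory Fc receptor of these cells, stood at 26.9, 18.8 and 23.9 CPM in the SD livers and 45.3, 35.0 and 42.7 CPM in the treated livers (0.82 ± 0.15, adjusted p = 0.00203), and Mrc1, a scavenger receptor, at 13.7, 11.4 and 12.1 CPM in the SD livers and 23.8, 19.1 and 18.5 CPM in the treated livers (0.72 ± 0.14, adjusted p = 0.00221). Both genes were higher in every treated library than in any SD library. Rgs5, a pericyte marker, rose by 1.13 ± 0.18, 1 of 3 that rose among 24 stellate cell and pericyte markers. These were 12.5% of the list, beside 19.8% of all genes called. With SD sample 4 or 5 or any 1x Aza-TdC sample left out 1 rose. Of 19 Kupffer cell markers 2 rose, 10.5% of the list beside 19.8% of all genes called. The count was 0 without SD sample 4, SD sample 5 or 1x Aza-TdC sample 2. It was 4 without SD sample 3 and 6 without 1x Aza-TdC sample 4. Clec4f, which defines resident Kupffer cells, did not pass (0.11 ± 0.24, adjusted p = 0.778).

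**Figure D5:**
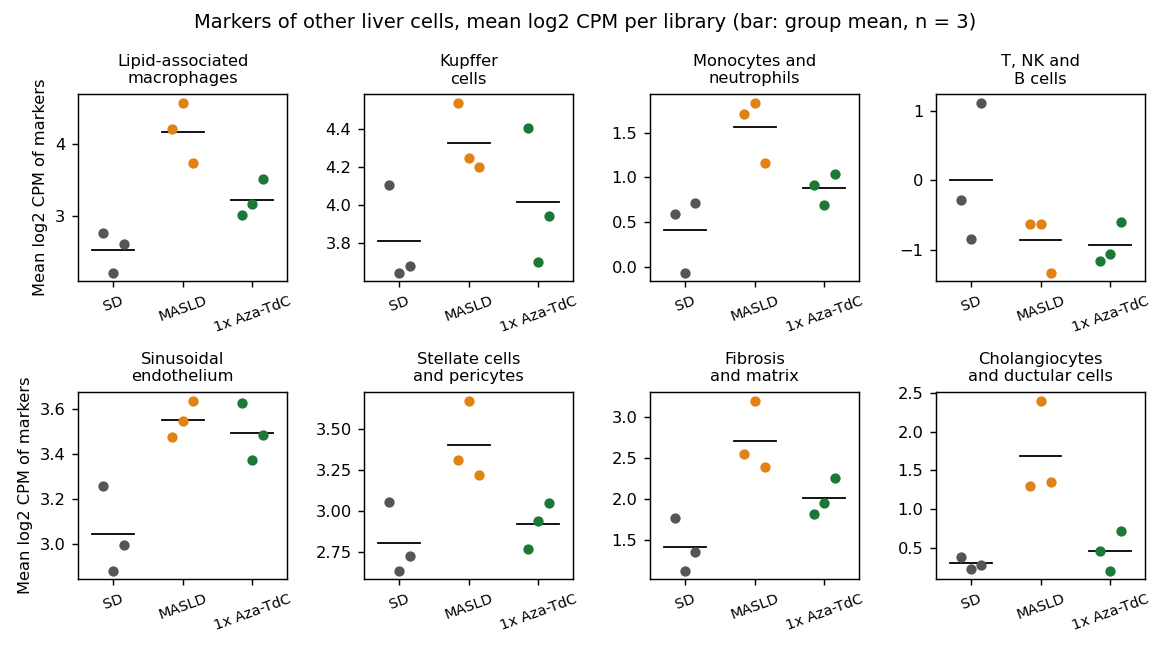
Mean log2 CPM per library over 8 lists of markers of other liver cells in the SD, MASLD and 1x Aza-TdC livers, 3 libraries each, with a bar at the mean of each group. SD sample 5 stands alone at 1.12 for T, NK and B cells, the sinusoidal endothelial markers of every 1x Aza-TdC library lie above every SD library, and the cholangiocyte markers of every 1x Aza-TdC library lie below every MASLD library.

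Cell cycle and p53 genes rose in part. Of 42 tested cell cycle and replication genes 10 rose and 0 fell (median 0.29), where 22 rose in the MASLD livers (median 0.96). Ccnd1, cyclin D1, stood at 11.1, 14.7 and 13.3 CPM in the SD livers and 50.6, 69.6 and 32.2 CPM in the treated livers (1.96 ± 0.21, adjusted p = 2.9e-05), and Mcm5, a part of the replicative helicase, at 0.955, 0.855 and 1.42 CPM in the SD livers and 2.08, 2.93 and 3.25 CPM in the treated livers (1.34 ± 0.26, adjusted p = 0.00250). In neither gene did the groups overlap. Of 34 p53 targets and DNA damage genes 12 rose and 1 fell (median 0.43), where 15 rose and 0 fell in the MASLD livers (median 0.44). In the direct test against MASLD 0 of them were higher and 0 lower. Cdkn1a, the p53-induced inhibitor of the cell cycle, stood at 4.13, 2.44 and 4.33 CPM in the SD livers and 26.8, 10.6 and 29.0 CPM in the treated livers (2.60 ± 0.33, adjusted p = 9.0e-05) and at 26.8, 17.3 and 22.1 CPM in the MASLD livers. Trp53inp1, another p53 target, stood at 20.1, 18.8 and 16.8 CPM in the SD livers and 65.8, 34.3 and 41.5 CPM in the treated livers (1.35 ± 0.20, adjusted p = 3.1e-04). Treated sample 2 was the highest library for Trp53inp1, and the treated and SD groups did not overlap. Without SD sample 4, 6 genes of the p53 list rose, and without 1x Aza-TdC sample 4, 7.

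Few genes of DNA methylation and demethylation passed. Of 24 tested 1 rose and 1 fell, 8.33% of the list beside 19.8% of all genes, and 0 to 1 did so in each direction with 1 library left out. Dnmt1 stood at 6.00, 7.31 and 5.96 CPM in the SD livers and 7.02, 7.32 and 10.3 CPM in the treated livers (0.35 ± 0.17, adjusted p = 0.152). Treated sample 5 was the highest library and the other 2 lay within or at the SD range. The DNMT1 protein, on which the drug acts, was outside these measurements. Dnmt3a, a de novo methyltransferase, did not pass (−0.33 ± 0.17, adjusted p = 0.208), except with the GC and length trend removed (−0.56, adjusted p = 0.0362). Uhrf1, the partner that brings DNMT1 to new DNA, did not pass at 0.136, 0.253 and 0.843 CPM in the SD livers and 0.631, 0.264 and 1.03 CPM in the treated livers (0.60 ± 0.61, adjusted p = 0.530).

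Germline genes that DNA methylation keeps silent were mostly too low to test, and 5 of 36 passed the filter. Of these 1 was called, 20% beside 19.8% of all genes. Hormad2, a meiotic chromosome protein, was the one that rose, at 0, 0.127 and 0 CPM in the SD livers and 0.252, 0.408 and 0.529 CPM in the treated livers (3.12 ± 1.00, adjusted p = 0.0391), levels of less than 1 CPM that were also met in the MASLD livers (0.584, 0.205 and 0.344 CPM). It did not pass without SD sample 3 or 5 or any 1x Aza-TdC library (adjusted p from 0.0557 to 0.140). Among 27 tested imprinted genes 5 rose and 2 fell, 25.9% of the list beside 19.8% of all genes. With any 1 library left out 3 or 4 rose and 1 fell. Peg3, a paternally expressed zinc finger gene, stood at 0.443, 0.412 and 0.291 CPM in the SD livers and 1.98, 1.58 and 1.29 CPM in the treated livers (2.09 ± 0.30, adjusted p = 2.5e-04), and at 1.86, 2.49 and 2.702 CPM in the MASLD livers. Of 24 tested genes of nucleoside analogue uptake and activation 2 rose and 4 fell, 25% of the list beside 19.8% of all genes. With 1 library left out 1 to 2 rose and 2 to 7 fell. In the MASLD livers 3 rose and 7 fell against SD, and in the direct test 1 was higher and 0 lower. One that fell was Slc29a1, a nucleoside transporter by which such drugs enter cells. It stood at 237, 246 and 267 CPM in the SD livers and 161, 146 and 135 CPM in the treated livers (−0.76 ± 0.12, adjusted p = 7.3e-04), without overlap.

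Genes of protein synthesis and respiration were lower together, with sizes that depended on single libraries. Of 77 cytosolic ribosomal protein genes 60 fell and 0 rose (median −0.54), and of 61 nuclear genes of oxidative phosphorylation 30 fell and 0 rose (median −0.42). In the MASLD livers 70 and 31 of the same members fell against SD, and 0 of either list passed the direct test. Rpl27a, of the large subunit, stood at 316, 316 and 364 CPM in the SD livers and 157, 217 and 187 CPM in the treated livers (−0.83 ± 0.13, adjusted p = 6.8e-04), and Sdhb, of respiratory complex II, at 298, 289 and 311 CPM in the SD livers and 159.6, 215 and 199.7 CPM in the treated livers (−0.64 ± 0.13, adjusted p = 0.00248). SD sample 5 was highest and treated sample 2 lowest for Rpl27a. The ribosomal count that fell was 20 without SD sample 5, 24 without 1x Aza-TdC sample 2, 31 without 1x Aza-TdC sample 5 and 43 after removal of the GC and length trend. For oxidative phosphorylation it was 10 without SD sample 5 or 1x Aza-TdC sample 2 and 16 without 1x Aza-TdC sample 5. With the replicate numbers fitted as a block, as described below, 8 ribosomal and 2 oxidative phosphorylation genes fell.

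The 12 largest rises and falls were taken only among genes that passed and whose treated and SD libraries did not overlap. Separate groups are therefore no result for them, and they include Aqp7, Cidea, Cidec, Cyp2a4 and Apoa4 above. Several of these rises lay outside the gene lists above. Cntnap1, an axonal adhesion protein, stood at 0.375, 0.412 and 0.204 CPM in the SD livers and 6.68, 9.36 and 12.1 CPM in the treated livers (4.82 ± 0.30, adjusted p = 1.6e-07). Slc35f2, a transporter of the solute carrier family, stood at 0.443, 0.380 and 0.145 CPM in the SD livers and 6.66, 9.53 and 9.17 CPM in the treated livers (4.72 ± 0.28, adjusted p = 1.1e-07). Both were near 0 in each SD liver and at several CPM in each treated liver. Rad51b, a gene of homologous recombination, rose by 4.07 ± 0.38, Osbpl3, an oxysterol-binding protein, by 3.89 ± 0.30, and Ttc39a by 4.46 ± 0.41. Fam83a, an adaptor of growth factor signalling, rose by 4.35 ± 0.55 and lay below MASLD (−2.19 ± 0.36; adjusted p = 0.00533).

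Among the 12 largest falls were Enho, the gene of the peptide adropin, at 9.48, 5.64 and 7.44 CPM in the SD livers and 0.820, 0.624 and 0.608 CPM in the treated livers (−3.44 ± 0.37, adjusted p = 2.8e-05), and Clec2h, a C-type lectin, at 18.3, 12.8 and 10.6 CPM in the SD livers and 0.378, 1.13 and 1.14 CPM in the treated livers (−3.99 ± 0.60, adjusted p = 4.0e-04). Separate groups and a large fall were conditions for naming these genes, so the gap between the groups is no result. Grid1, a glutamate receptor subunit, fell by 3.62 ± 0.43, and Adgrf1, an adhesion receptor, by 3.63 ± 0.66. Selenbp2, a selenium-binding protein with a near-identical relative, stood at 932, 18.8 and 25.5 CPM in the SD livers and 4.71, 6.26 and 16.3 CPM in the treated livers (−5.17 ± 1.21, adjusted p = 0.00801). SD sample 3 was far above the other SD samples, and without it Selenbp2 did not pass (adjusted p = 0.111). The immunoglobulin genes Ighg2b and Ighg2c were also among the largest falls, and neither passed without SD sample 5 (adjusted p = 0.0793 and 0.114).

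Genes that passed both against SD and against MASLD mark where the full dose differed from both other groups. Ly6d and Ephb2 were above SD and below MASLD. Ly6d, a surface protein of the Ly6 family, stood at 0.273, 0.253 and 1.77 CPM in the SD livers and 5.38, 3.21 and 5.36 CPM in the treated livers and at 38.0, 52.3 and 17.5 CPM in the MASLD livers (2.55 ± 0.62 and −2.95 ± 0.51, adjusted p = 0.00991 and 0.00742). Fam47e and Afmid, a formamidase of tryptophan breakdown, were below SD and above MASLD, Afmid at −0.46 ± 0.10 and 0.79 ± 0.10 (adjusted p = 0.00574 and 0.00126).

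Above both other groups was Fgf1, a growth factor, which stood at 58.2, 66.1 and 65.7 CPM in the SD livers and 116, 95.2 and 115 CPM in the treated livers and at 55.2, 51.2 and 68.7 CPM in the MASLD livers (0.78 ± 0.14 and 0.90 ± 0.14, adjusted p = 0.00178 and 0.00494). The genes of this paragraph were taken for passing both tests, so separate groups are no result for them. Below both stood Tra2a, a splicing regulator, at 8.90, 7.41 and 9.62 CPM in the SD livers and 4.41, 4.65 and 3.94 CPM in the treated livers and at 11.4, 10.9 and 9.27 CPM in the MASLD livers (−0.99 ± 0.16 and −1.28 ± 0.15, adjusted p = 5.2e-04 and 6.7e-04), and Aqp8, a channel for water and hydrogen peroxide, at 259.9, 138 and 136 CPM in the SD livers and 44.6, 67.7 and 53.1 CPM in the treated livers and at 131, 130.4 and 170.1 CPM in the MASLD livers (−1.69 ± 0.24 and −1.38 ± 0.24, adjusted p = 2.2e-04 and 0.00730). The treated libraries were the lowest of the 3 groups for both, which that choice favoured.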

How the data were processed

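The authors deposited raw counts per gene for 12 mouse liver libraries, made with a stranded mRNA kit, per the labels' protocols. Reads were aligned with STAR 2.7.3a to mm10, per the submitters' processing notes. For counting tool, strand setting and annotation, a name was not given in the sources used here. Sample 5 of 1x Aza-TdC has the number 8 in its library name. In R 4.3.3, edgeR 4.0.16 fitted 1 quasi-likelihood model to all 12 libraries with 1 coefficient per group, after filterByExpr and TMM scaling, and p-values were adjusted by Benjamini-Hochberg over 13866 genes. Standard errors were computed from the log2 fold change and the F statistic. DESeq2 1.42.0, other scalings, filters and thresholds, offsets that remove a spline of GC content and transcript length (5 degrees of freedom each) from every library, and fits without each library in turn served as alternatives. The model was tested on simulated data.

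The members and gene lists were chosen with earlier results of these data known. Genes were named by rule: the 12 largest rises and falls, up to 3 per direction in each list, a fixed set, up to 8 of each sign combination that passed both comparisons, and the 6 most abundant. Some genes that this rule names are not reported here. Symbols came from GENCODE. A check of promoter CpG content is void, because 74.9% of the genes tested had a RefSeq window, under the 80% required. Counts carry no molecular identifiers, so intervals and floors cover counting error only. Replicate libraries of a group differed beyond sampling noise and none was merged.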

Additional observations from a re-analysis of the deposited data

How the results depend on the processing

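The 2739 genes that differed between the 1x Aza-TdC and SD livers became 2767 with RLE factors, 2762 with upper-quartile factors, 3202 with DESeq2, 3138 without a filter on low counts, 2698 with a mean of at least 1 CPM and 2443 with only the 2 groups fitted, and DESeq2 shared 2723 of the 2739. The count was 1357 at an adjusted p under 0.01 and 800 at 2-fold or more, and ran from 1713 (without 1x Aza-TdC sample 2) to 2579 with 1 library left out. For MASLD against SD the 4085 became 2254 at an adjusted p under 0.01 and 1437 at 2-fold or more, and ran from 2673 (without MASLD sample 4) to 3868. The 431 genes that differed between the 1x Aza-TdC and MASLD livers became 825 with DESeq2, 1131 without a filter, 1000 with only the 2 groups fitted, 91 at an adjusted p under 0.01, 186 at 2-fold or more and 653 after removal of the GC and length trend (387 higher and 266 lower). They ran from 84 (without MASLD sample 4) to 395 with 1 library left out, and were 104 without MASLD sample 3 and 145, 159 and 213 without 1x Aza-TdC samples 2, 4 and 5. Removing the trend moved the median log2 fold change of all genes from 0.03 to −0.10 for MASLD against SD, where 1586 genes then rose and 2869 fell, and from 0.02 to −0.06 for 1x Aza-TdC against SD.

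The replicate numbers of the titles were fitted as a block. SD and 1x Aza-TdC share only numbers 4 and 5. The deviations of same-numbered libraries correlated at 0.0373 and 0.0706, and those of other pairs from −0.14 to 0.0823. With so few pairs, this cannot decide whether same-numbered samples share more than a number. Number 2 occurs in 1 library, which the block leaves without weight in the comparison. The block gave 1122 genes for 1x Aza-TdC against SD, 3287 for MASLD against SD and 53 for 1x Aza-TdC against MASLD. With the trend also removed it gave 1395, 3666 and 95. Of 141 genes of the text that were checked, 20 lost their call against SD under the block, and 17 with the trend also removed. Among the 20 were Sesn2, Ly6d, Ghr, Afmid, Acss2 and Gstm3 (adjusted p from 0.0515 to 0.0857 by edgeR). Under the block Clec4f stood at −0.17 and Cyp2e1 at 0.00885 on the log2 scale against SD, and with the trend also removed Fasn stood at −0.0585 and Clec4f at −0.20. These are reversals of genes that did not pass. With 1 library left out Clec4f ran from −0.32 to 0.30 and Cyp2e1 from −0.24 to 0.0545. The cause of these changes was not tested.

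Without a filter on low counts Fasn, Spp1, Col1a1 and Trem2, which did not pass against SD, did so (adjusted p from 6.6e-04 to 0.0130 by edgeR), and Trem2 did so against MASLD, where it also passed without MASLD sample 5 (adjusted p = 0.0488).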

Other observations

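Genes of the circadian clock differed in both directions. Of 21 tested clock and output genes 3 rose and 5 fell against SD. Dbp, a transcription factor driven by the clock, stood at 183, 189 and 183 CPM in the SD livers and 79.9, 103 and 83.8 CPM in the treated livers (−1.06 ± 0.12, adjusted p = 3.6e-05), and Nr1d1, the repressor REV-ERB alpha, at 178, 53.7 and 84.0 CPM in the SD livers and 30.5, 29.3 and 31.4 CPM in the treated livers (−1.79 ± 0.36, adjusted p = 0.00293). Bhlhe41, another repressor of the clock, stood at 11.7, 3.55 and 4.45 CPM in the SD livers and 0.841, 1.56 and 1.37 CPM in the treated livers (−2.38 ± 0.39, adjusted p = 6.8e-04). In all 3 genes each treated library lay below each SD library. Per3, a period gene, rose by 0.92 ± 0.23 (adjusted p = 0.0123), which was lost without 1x Aza-TdC sample 2 (adjusted p = 0.0592) and after removal of the GC and length trend (adjusted p = 0.0778), where 0 clock genes rose and 6 fell. The labels give no time of day of collection, and its part in these values was not tested. The genes of the clock that rose were 0 to 5 with 1 library left out.

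Iron and metal handling genes were divided too, with 4 of 29 higher and 6 lower than in SD. Tfrc, the transferrin receptor, stood at 2.39, 4.34 and 3.40 CPM in the SD livers and 21.1, 16.7 and 11.5 CPM in the treated livers (2.28 ± 0.31, adjusted p = 1.9e-04). Hamp2, a relative of the iron hormone hepcidin whose reads may be shared with Hamp, stood at 26.1, 81.8 and 89.0 CPM in the SD livers and 13.3, 15.7 and 10.7 CPM in the treated livers (−2.31 ± 0.39, adjusted p = 8.6e-04). Neither gene overlapped between the groups, and in the MASLD livers Tfrc stood at 16.2, 15.9 and 16.3 CPM and Hamp2 at 11.3, 11.9 and 20.9 CPM. Without 1x Aza-TdC sample 4, 6 rose and 2 fell, and without SD sample 5, 4 rose and 3 fell. Of 31 genes of glucose and insulin signalling 7 rose and 2 fell. G6pc, the glucose-releasing phosphatase, fell by 0.85 ± 0.22 (adjusted p = 0.0119), and Pfkfb3, a driver of glycolysis, rose by 0.83 ± 0.17 (adjusted p = 0.00333). This count was 2 to 6 rising and 1 to 3 falling with 1 library left out, and 3 rising and 5 falling after removal of that trend.

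Of 40 genes of lysosomes and autophagy 2 rose and 9 fell. Ctsl, cathepsin L, stood at 695, 689.7 and 754 CPM in the SD livers and 372, 405 and 404 CPM in the treated livers (−0.86 ± 0.11, adjusted p = 8.2e-05), and Lipa, the acid lipase, rose by 0.54 ± 0.11 (adjusted p = 0.00259). The treated and SD libraries did not overlap for Ctsl, and 4 to 7 genes of the list fell with 1 library left out. Of 22 monocyte and neutrophil markers 3 rose against SD (1 without SD sample 3 or 4), where 14 rose in the MASLD livers, and 7 were lower than in MASLD, a count that was 0 without MASLD sample 3 or 4 or 1x Aza-TdC sample 2 or 4. Of 37 genes of actin, tubulin and membrane remodelling 4 rose and 4 fell against SD (2 to 5 and 1 to 4 with 1 library left out), where 18 rose and 3 fell in the MASLD livers, and 11 were lower than in MASLD. The count lower than in MASLD ran from 4 to 13 with 1 library left out. Shares called against SD were 13.6% for the monocyte and neutrophil list and 21.6% for the actin list, beside 19.8% of all genes.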
